A study of Zea mays with 24 samples.

Results

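Benzoxazinoid biosynthesis genes were followed in maize (Zea mays) seedlings given water or salt. The genes were chosen by identifier as bx1 (Zm00001d048709), bx2 (Zm00001d048710), bx3 (Zm00001d048702), bx4 (Zm00001d048703), bx5 (Zm00001d048705) and bx8 (Zm00001d048634), which are 6 of the 50202 features in the files. RNA was sequenced from roots and young shoots of the cultivars SS and ST at the 3-leaf stage, after water or a 100 mM salinity solution. The 8 groups were SS root water, SS root salinity, SS shoot water, SS shoot salinity, ST root water, ST root salinity, ST shoot water and ST shoot salinity, with 3 libraries each. The labels do not say what SS and ST stand for, how long the salinity lasted or how many plants a library holds.

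The names came with the selection, since the files hold identifiers only. None of the Zm00001d identifiers occurs in the RefSeq gene table used for names (assembly Zm-B73-REFERENCE-NAM-5.0). For bx1 to bx5 the order of the identifier numbers is bx3, bx4, bx5, bx1, bx2, which is also their order along the chromosome in that table. In the table bx8 lies between bx5 and bx1, with 0 other genes between it and bx5. The number of Zm00001d048634 lies outside that run, before bx3, and on that side the table places bx6, with 65 other genes between bx6 and bx3. Whether Zm00001d048634 is bx8, bx6 or another gene is therefore not settled here, and it is called by its identifier below. The number of Zm00001d048707, which was not among the 6 chosen, lies between bx5 and bx1, where the table places bx8.

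Benzoxazinoids are defence compounds of maize and other grasses, known above all from young seedlings, where they act against insects and fungi and are stored as glucosides. BX1 splits indole-glycerol phosphate into free indole, the entry into the pathway. BX2, BX3, BX4 and BX5 are cytochrome P450 enzymes that add oxygen to indole in successive steps and give the benzoxazinoid DIBOA. BX8 is a glucosyltransferase that attaches glucose to the product, and BX6 is a dioxygenase that acts on the glucoside.

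Levels are in FPKM, which divides the fragments of a feature by its length and by the library's total, so that levels of different genes can be set side by side. Whole read counts could be recovered from them, and library totals ran from 19747198 to 28825226 reads. Between replicates, Pearson correlations of log2(FPKM + 1) over all features ran from 0.9922 to 0.9968. All 6 genes passed the filter for testing, an FPKM of at least 1 in at least 3 libraries of a fit, in roots, in shoots and over all 24 libraries. In roots, bx2 passed through SS alone. Differences were tested with limma on log2(FPKM + 1), in 1 fit per tissue or, between tissues, in 1 fit of all libraries. A difference was called at an adjusted p under 0.05 over all features of the fit (Benjamini-Hochberg). The tissue labels could not be checked against marker genes, because 0 of 9 marker symbols had an identifier in the files. In whole roots and shoots, fewer cells of a type and less RNA per cell cannot be told apart.

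The indole-forming gene bx1 had the widest range, as its highest over its lowest level (174 times), of the 5 genes with reads in every library. In SS roots it stood at 24.3, 25.4 and 22.3 FPKM under water and 25.5, 30.6 and 32.5 under salinity. In ST roots it stood at 1.49, 1.9 and 1.29 FPKM under water and 3.57, 3.05 and 3.105 under salinity, on 53 to 140 reads per library. Every ST root library lay far below every SS root library. In shoots the SS libraries read 75.1, 89.3 and 79.1 FPKM under water and 106.5, 107.1 and 107.7 under salinity. The ST shoot libraries read 60.9, 61.7 and 64.1 FPKM under water and 214.6, 219.6 and 225.1 under salinity. Ordered by mean level, the 8 groups did not overlap from one to the next, with ST shoots under salinity highest and ST roots under water lowest. The groups of bx2 were likewise separate. Non-overlap was common, at 50.8% to 85.3% of features in the pairs of groups compared below.

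The first P450 gene, bx2, was close to undetected in ST roots. There it stood at 0.218, 0.202 and 0.199 FPKM under water, on 11 reads in each library, and at 0.0947, 0 and 0 under salinity, on 5, 0 and 0 reads. The same feature took 2173 to 4703 reads per library in ST shoots. Those libraries stood at 41.4, 41.4 and 43.5 FPKM under water and 95.1, 95.6 and 101.5 under salinity. In SS, roots read 5.84, 6.44 and 5.84 FPKM under water and 7.65, 9.19 and 8.48 under salinity. The SS shoots read 76.2, 77.4 and 80.5 FPKM under water and 70.3, 69.6 and 61.7 under salinity, above every SS root library.

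The later P450 genes were the most abundant of the set in most groups and were well expressed in roots too. They are related in sequence, and how the authors assigned reads shared between them is not given. Across the 24 libraries bx3 ran from 64.2 to 312 FPKM, bx4 from 43.8 to 511 and bx5 from 24.9 to 484. In SS roots under water bx3 read 225, 249.9 and 241 FPKM, bx4 read 211, 226 and 221, and bx5 read 183, 192 and 184. The 3 genes thus lay close together in SS roots, and bx3 and bx4 overlapped. In ST roots under water bx3 read 64.2, 80.4 and 75.3 FPKM, bx4 read 43.8, 53.2 and 48.1, and bx5 read 24.9, 32.6 and 32.2, with no overlap between the genes. Their highest levels differed in place: bx3 peaked in SS shoots, at 308 ± 5.35 FPKM under water and 297 ± 13.0 under salinity, groups that overlapped (SD, n = 3 libraries here and below). Both bx4 and bx5 peaked in ST shoots under salinity, at 502 ± 8.43 and 476 ± 9.36 FPKM, where they ranked 172nd and 182nd of 33713 features with reads.

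Zm00001d048634 had another pattern. It stood at 98.8, 99.6 and 103.8 FPKM in SS shoots under water and at 163, 159.8 and 162 under salinity, its highest group. In ST shoots it was lowest, at 24.4, 21.9 and 24.5 FPKM under water and 32.4, 31.5 and 33.1 under salinity. Roots lay between, at 53.2 to 68.96 FPKM in SS and 68.2 to 88.0 in ST.

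**Figure D1:**
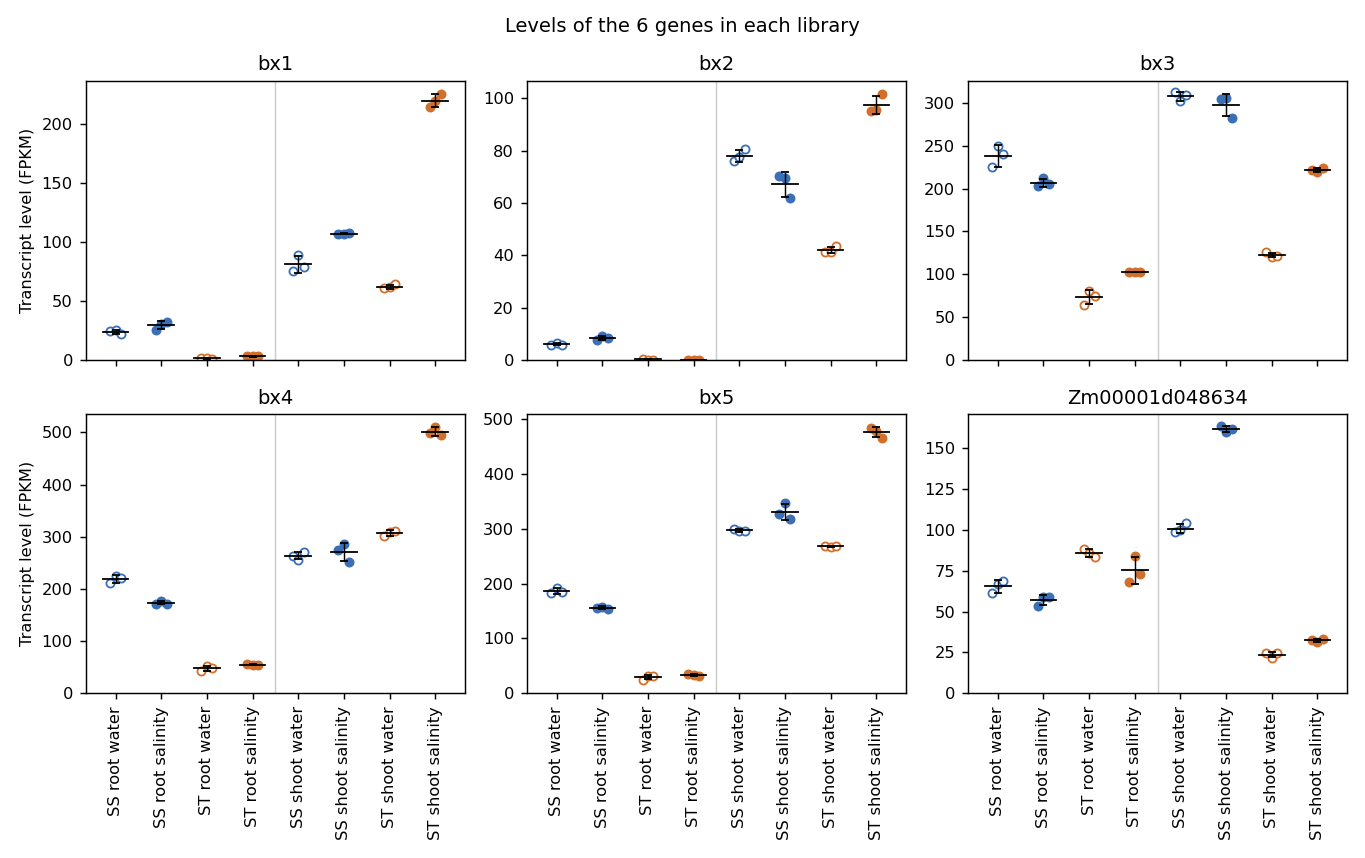
Transcript level in FPKM (vertical axis, own scale per panel, starting at 0) of the 6 genes in the 8 groups. Points are single libraries (open, water; filled, salinity; blue, SS; orange, ST), black lines are means and bars are SD of 3 libraries. The levels of bx1 to bx5 are lowest in ST roots. All 6 genes rise with salinity in ST shoots, where Zm00001d048634 has its lowest levels.

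Which organ carried the transcripts was asked within each cultivar and treatment. In SS all 6 genes were called between tissues under water and under salinity. In ST all genes but bx2 are counted, and these were called under both. There bx2 stayed below 1 FPKM in every root library, so its ST difference is given as a description. Calls were common throughout, at 82.2% of features in SS under water, 80.0% in SS under salinity, 85.1% in ST under water and 84.8% in ST under salinity, so the counts alone say little. In SS all 6 genes were higher in shoots, a direction that 24.9% of features took under water and 26.3% under salinity, against 57.3% and 53.7% lower. In ST bx1, bx3, bx4 and bx5 were higher in shoots, as were 21.5% and 21.2% of features. Zm00001d048634 was lower, as were 63.6% in both treatments. The median of all features lay below 0 in these comparisons, at -0.38 and -0.28 on the log2 scale in SS and -0.52 and -0.545 in ST. Median-of-ratios scaling moved it by 0.365 and 0.276 in SS and by 0.506 and 0.528 in ST. Among called features the share higher in shoots was 30.3% and 32.9% in SS and 25.3% and 25.0% in ST in the deposited scaling. It became 47.3% and 48.0% in SS and 47.6% and 47.8% in ST when rescaled. The genes counted kept their calls and directions under it.

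The size of the tissue difference set the genes apart. The largest was that of bx2, at 6.04 ± 0.342 FPKM in SS roots and 78.0 ± 2.21 in SS shoots under water (log2 difference 3.49, SE 0.06, limma adjusted p = 1.62e-22), or 3.87 above the median of all features. In ST under water bx2 differed by 5.16, a value that the near-absence of reads in roots and the added 1 hold down. It was 7.11 with 0.1 added and 7.61 with voom on recovered reads. The difference of bx1 was 1.72 in SS (SE 0.084, limma adjusted p = 2.06e-14) and 4.63 in ST under water (SE 0.084, limma adjusted p = 3.65e-22), a mean level 39.8 times as high in shoots as in roots of ST. The next pair, bx4 and bx5, was 6.35 and 8.95 times as high in ST shoots under water against 1.2 and 1.59 times as high in SS. The log2 differences of these 2 genes in SS were 0.26 and 0.67 as deposited and 0.75 and 1.16 with median-of-ratios scaling. For bx3, at 73.3 ± 8.25 FPKM in ST roots and 122.5 ± 2.68 in ST shoots under water (1.67 times), the log2 difference was 0.74 as deposited and 1.41 with median-of-ratios scaling. Zm00001d048634 went the other way in ST, at 85.8 ± 2.27 FPKM in roots and 23.6 ± 1.5 in shoots under water (log2 difference -1.82, SE 0.062, limma adjusted p = 2.58e-17; -1.16 with median-of-ratios scaling). Under salinity that difference was -1.19, or -0.64 relative to the median of all features and -0.48 after median-of-ratios scaling (limma adjusted p = 1.29e-06).

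Between the cultivars, bx1 to bx5 stood further apart in roots than in shoots within each treatment, and Zm00001d048634 further apart in shoots. In roots bx2 passed the filter only through SS, the cultivar in which it is high, so its difference there is given as a description and left out of the counts. The other 5 genes were all called in roots under water, where 70.7% of all features were, and in roots under salinity, where 73.3% were. The genes bx1, bx3, bx4 and bx5 were lower in ST, a direction taken by 31.4% of features under water and 30.8% under salinity. Under water bx1 was 15.35 times as high in SS as in ST (log2 difference -3.29, SE 0.102, limma adjusted p = 1.05e-11). The corresponding ratio was 29.3 for bx2, on 33 reads in all in ST, 3.25 for bx3, 4.54 for bx4 and 6.24 for bx5. Under salinity the ratios were 9.115 for bx1, 2.01 for bx3, 3.18 for bx4 and 4.66 for bx5, all smaller than under water, whereas bx2 stood at 8.44 ± 0.767 FPKM in SS and on 5 reads in all in ST. Zm00001d048634 was higher in ST, by 0.38 under water (SE 0.072, limma adjusted p = 0.000366) and by 0.39 under salinity (SE 0.072, limma adjusted p = 0.000307), as were 39.4% and 42.6% of features. How far sequence differences between each cultivar and the B73 gene models add to these values was not tested.

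In shoots the order of the cultivars depended on the treatment. All 6 genes were called under water and under salinity, as were 80.1% of all features in each case. Under water 5 of the 6 were lower in ST, as were 45.0% of features, and only bx4 was higher, as were 35.0% of features, at 307 ± 5.11 against 263 ± 6.89 FPKM. The largest of these differences was that of Zm00001d048634 (-2.05, SE 0.044, limma adjusted p = 6.56e-14), followed by bx3 (-1.32, SE 0.036, limma adjusted p = 6.16e-13). The difference of bx5, at 266 to 268 FPKM in ST and 295 to 300.1 in SS libraries, was the smallest (-0.15, SE 0.034, limma adjusted p = 0.00135). Its call was lost with median-of-ratios scaling (adjusted p = 0.351) and with quantile normalization (adjusted p = 0.959). Under salinity 4 genes were higher in ST, as were 29.0% of features: bx1 by 1.03, bx2 by 0.53, bx4 by 0.89 and bx5 by 0.53 on the log2 scale (limma adjusted p of 4.02e-10, 3.4e-07, 2.6e-10 and 6.65e-09). The other 2, bx3 and Zm00001d048634, were lower in ST, by -0.42 and -2.29, as were 51.1% of features. The median of all features was -0.19 there, and median-of-ratios scaling moved it by 0.195 and left all 6 calls and directions in place. The share of called features that were higher in ST was 36.2% before and 49.8% after this rescaling.

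**Figure D2:**
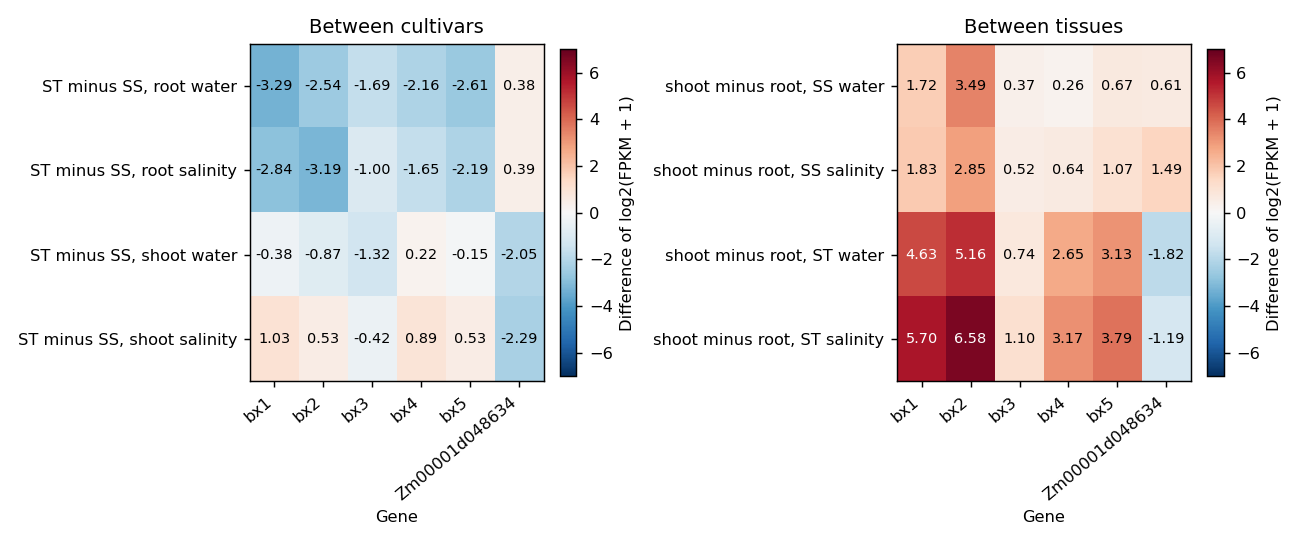
Difference of log2(FPKM + 1) for each gene (columns) between cultivars (left) and between tissues (right); each cell prints the value, red is higher and blue lower in the group named first. The values for bx1 to bx5 between cultivars are all below 0 in roots, down to -3.29 for bx1 under water, and mixed in shoots, while shoot minus root is larger in ST than in SS for bx1 to bx5.

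In ST shoots every one of the 6 genes rose with salinity, against 18.9% of features that rose, 22.8% that fell and 41.7% that were called in either direction. The water and salinity libraries did not overlap for any of the 6, against 51.2% of features. The response was largest at the start of the pathway: bx1 rose from 62.2 ± 1.7 to 219.8 ± 5.23 FPKM (log2 difference 1.8, SE 0.052, limma adjusted p = 3.45e-11). The next gene, bx2, rose from 42.1 ± 1.25 to 97.4 ± 3.59 FPKM (1.19, SE 0.05, limma adjusted p = 8.28e-10). The later P450 genes rose by similar amounts, bx3 by 0.85 (SE 0.036), bx4 by 0.71 (SE 0.043) and bx5 by 0.83 (SE 0.034), with limma adjusted p of 7.78e-10, 2.81e-08 and 7.32e-10. Zm00001d048634 rose from 23.6 ± 1.5 to 32.4 ± 0.81 FPKM (0.44, SE 0.044, limma adjusted p = 3.16e-06), the smallest rise of the set. The median of the 6 differences was 0.84, that of all features -0.0048. All 6 calls held under each of 21 alternatives.

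In SS shoots the response was mixed. There 3 genes rose and 1 fell, against 56.6% of features called in either direction, 33.6% rising and 23.0% falling. The water and salinity libraries of those 4 genes did not overlap, against 60.9% of features. Zm00001d048634 rose most, from 100.7 ± 2.715 to 162 ± 1.745 FPKM (log2 difference 0.68, SE 0.044, limma adjusted p = 3.4e-08), and bx1 rose from 81.2 ± 7.31 to 107 ± 0.576 FPKM (0.4, SE 0.052, limma adjusted p = 2.22e-05). The gene after it in the pathway, bx2, fell from 78.0 ± 2.21 to 67.2 ± 4.75 FPKM (-0.21, SE 0.05, limma adjusted p = 0.00257). The rise of bx5, from 297 ± 3.0 to 330 ± 14.7 FPKM (0.15, SE 0.034, limma adjusted p = 0.002), lost its call with median-of-ratios scaling (0.061, adjusted p = 0.226). Neither bx3 (-0.050, 95% interval -0.13 to 0.027) nor bx4 (0.040, 95% interval -0.052 to 0.13) was called. With median-of-ratios scaling bx3 was called as falling (-0.14, adjusted p = 0.0123), and with quantile normalization bx4 as rising (0.14, adjusted p = 0.0137). Without salinity replicate 3, bx4 was also called (0.092, adjusted p = 0.0362). Rises made up 59.3% of the calls over all features, and 47.4% of them once rescaled by median-of-ratios.

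In SS roots the changes were small. All 6 genes were called, against 38.7% of features, and their water and salinity libraries did not overlap, against 52.5% of features. The first 2 genes rose, bx1 by 0.28 (SE 0.102, limma adjusted p = 0.0433) and bx2 by 0.42 (SE 0.079, limma adjusted p = 0.00114), as did 19.7% of features. The other 4 fell, as did 19.0% of features: bx3 by -0.2 (limma adjusted p = 0.0323), bx4 by -0.33 (0.000656), bx5 by -0.26 (0.0245) and Zm00001d048634 by -0.2 (0.0427). The count of 6 calls went to 2 without water replicate 2, water replicate 3, salinity replicate 2 or salinity replicate 3, and to 3 without salinity replicate 1. The fall of bx4, from 219 ± 7.33 to 174 ± 3.4 FPKM, held under all 21 alternatives (adjusted p up to 0.00635). The rise of bx2 lost its call with a pseudocount of 0.1 alone (adjusted p = 0.116).

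In ST roots, of the 5 genes other than bx2, 3 rose and Zm00001d048634 fell, against 45.8% of features called, 26.1% rising and 19.7% falling. The gene bx2 passed the root filter only through SS and is left out of these counts. The water and salinity libraries of bx1, bx3 and bx4 did not overlap, against 50.8% of features. The rise of bx1, from 1.56 ± 0.312 to 3.24 ± 0.289 FPKM (log2 difference 0.73, SE 0.102, limma adjusted p = 8.53e-05), and that of bx3, from 73.3 ± 8.25 to 103 ± 0.369 FPKM (0.49, SE 0.068, limma adjusted p = 8.76e-05), held under each of 21 alternatives. For bx1 the difference was 1.02 with a pseudocount of 0.1 and 1.07 with voom. The difference of bx2 (-0.23) is given as a description and is the step from 11 reads per library to 5, 0 and 0. It was -1.29 with a pseudocount of 0.1 and -3.12 with voom. The rise of bx4 (0.18, limma adjusted p = 0.0246) and the fall of Zm00001d048634 (-0.19, limma adjusted p = 0.0424) were lost under 8 and 10 of 21 alternatives, with adjusted p up to 0.085 and 0.177. The gene bx5 stood at 29.9 ± 4.32 and 33.5 ± 1.61 FPKM, with overlapping libraries, and was not called (0.17, 95% interval -0.0078 to 0.34). The effect of single libraries was counted only with bx2 included, from 5 calls in all. That count went to 2 without water replicate 1 or water replicate 3 and to 3 without any 1 of the salinity libraries.

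**Figure D3:**
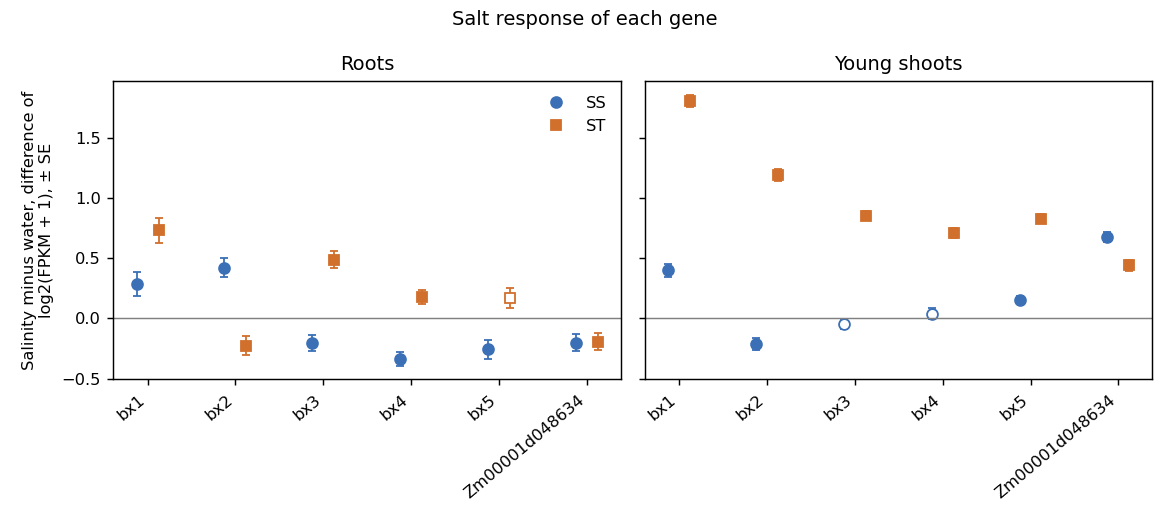
Salinity minus water as the difference of log2(FPKM + 1) from limma (vertical axis) for each gene in roots (left) and young shoots (right); circles are SS, squares ST, bars are SE, and open symbols were not called. In ST shoots all 6 genes lie above 0, bx1 highest at 1.80, whereas in SS shoots bx2, bx3 and bx4 lie at -0.21, -0.050 and 0.040.

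The cultivars' shoot responses were compared directly as a difference of differences. All 6 genes differed, against 51.3% of features. Among the features called, the ST response was the higher one in 38.9%, and in 52.6% once rescaled by median-of-ratios. The response was higher in ST for bx1 to bx5, a direction that 20.0% of features took, with 31.4% in the other. It was higher by 1.41 for bx1 (SE 0.073, limma adjusted p = 8.4e-09) and by 1.41 for bx2 (SE 0.071, limma adjusted p = 6.35e-09). For bx3, bx4 and bx5 the differences were 0.90, 0.67 and 0.68, with limma adjusted p of 1.61e-08, 1.38e-06 and 1.56e-07. For Zm00001d048634 the response was lower in ST (-0.24, limma adjusted p = 0.0068), a call lost with median-of-ratios scaling (-0.11, adjusted p = 0.192). In roots 4 of the 5 genes other than bx2 differed, against 41.7% of features, 23.4% higher and 18.4% lower in ST. The response there was higher in ST for bx1 (0.45), bx3 (0.69), bx4 (0.51) and bx5 (0.42), with limma adjusted p of 0.026, 0.000121, 0.00035 and 0.0103. The value of bx1, which was low in ST roots, was 0.725 with a pseudocount of 0.1 and 0.772 with voom. For bx2, which passed the root filter only through SS and had 33 and 5 reads in all in ST, the difference was -0.65. The call of bx1 was lost without any 1 of 5 root libraries (SS water replicate 1 or 2, SS salinity replicate 1, ST water replicate 3, ST salinity replicate 1), with adjusted p up to 0.0628. Zm00001d048634 gave 0.0062 (95% interval -0.21 to 0.23, limma adjusted p = 0.966).

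The tissues' salt responses also differed. In ST the shoot response exceeded the root response for bx1, bx3, bx4, bx5 and Zm00001d048634. Of all features 43.4% were called, 17.7% in that direction and 25.7% in the other. The excess was 1.07 for bx1, 0.36 for bx3, 0.53 for bx4, 0.66 for bx5 and 0.63 for Zm00001d048634, with limma adjusted p of 0.000819 or lower. For bx2, below 1 FPKM in every ST root library, the value of 1.42 is a description and is left out of the count. The size of the excess depended on the added 1 for the 2 genes lowest in ST roots. With a pseudocount of 0.1 it was 0.80 for bx1 and 2.5 for bx2. With voom it was 0.75 for bx1 (adjusted p = 0.0169) and 4.34 for bx2, which had 33 and 5 reads in all in ST roots. In SS 4 of 6 genes differed, against 41.2% of features, 24.5% higher and 16.7% lower in shoots. The shoot response was higher for bx4 (0.37), bx5 (0.41) and Zm00001d048634 (0.88) and lower for bx2 (-0.64), with limma adjusted p of 0.000371, 0.00122, 6.45e-08 and 3.85e-06. The other genes, bx1 and bx3, gave 0.11 (95% interval -0.13 to 0.36) and 0.15 (95% interval -0.012 to 0.32). In SS the shoot response was the higher one in 59.4% of the calls over all features, and in 45.3% once rescaled by median-of-ratios.

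Summed over bx1 to bx5, ST had both the lowest and the highest levels. The sum was 153 ± 17.1 FPKM in ST roots under water and 194 ± 3.14 under salinity. It was 801 ± 6.45 FPKM in ST shoots under water and 1516 ± 6.28 under salinity. In SS the sums were 674 ± 25.1 and 574 ± 12.3 FPKM in roots and 1027 ± 7.01 and 1073 ± 47.5 in shoots, for water and salinity. The makeup of the sum changed as well. The share of bx3 was 47.8% and 52.9% in ST roots and 15.3% and 14.6% in ST shoots, against 27.7% to 36.0% in the 4 SS groups. The share of bx1 ran from 1.02% in ST roots under water to 14.5% in ST shoots under salinity.

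**Figure D4:**
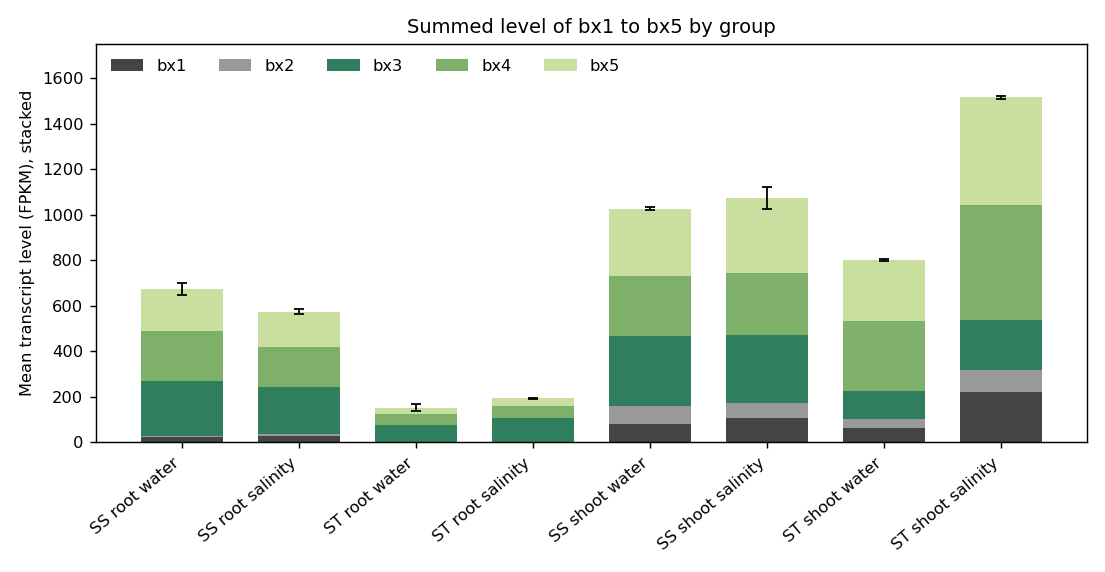
Mean level in FPKM of bx1 to bx5 stacked by group (vertical axis from 0; segments are genes); bars are SD of the sum over 3 libraries. The sum runs from 153 FPKM in ST roots under water to 1516 in ST shoots under salinity, and bx3 takes 14.6% to 15.3% of it in ST shoots.

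Ratios of 2 genes within a library do not depend on the library's scaling. The ratio of bx4 to bx3 lay at 0.84 to 0.94 in all 12 SS libraries. In ST it was 0.66 ± 0.021 in roots under water and 0.53 ± 0.0073 under salinity, but 2.51 ± 0.093 in shoots under water and 2.26 ± 0.06 under salinity. The ratio of bx2 to bx1 fell within shoots under salinity, from 0.87 to 1.02 down to 0.57 to 0.66 in SS libraries and from 0.67 to 0.68 down to 0.44 to 0.45 in ST. In these shoot groups the water and salinity libraries did not overlap, and no test was made of the ratios. Roots had lower ratios of bx2 to bx1, at 0.24 to 0.3 in SS and 0.11 to 0.15 in ST under water. The ratio of bx3 to bx1 went from 47.8 ± 9.0 in ST roots under water to 1.01 ± 0.0217 in ST shoots under salinity.

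**Figure D5:**
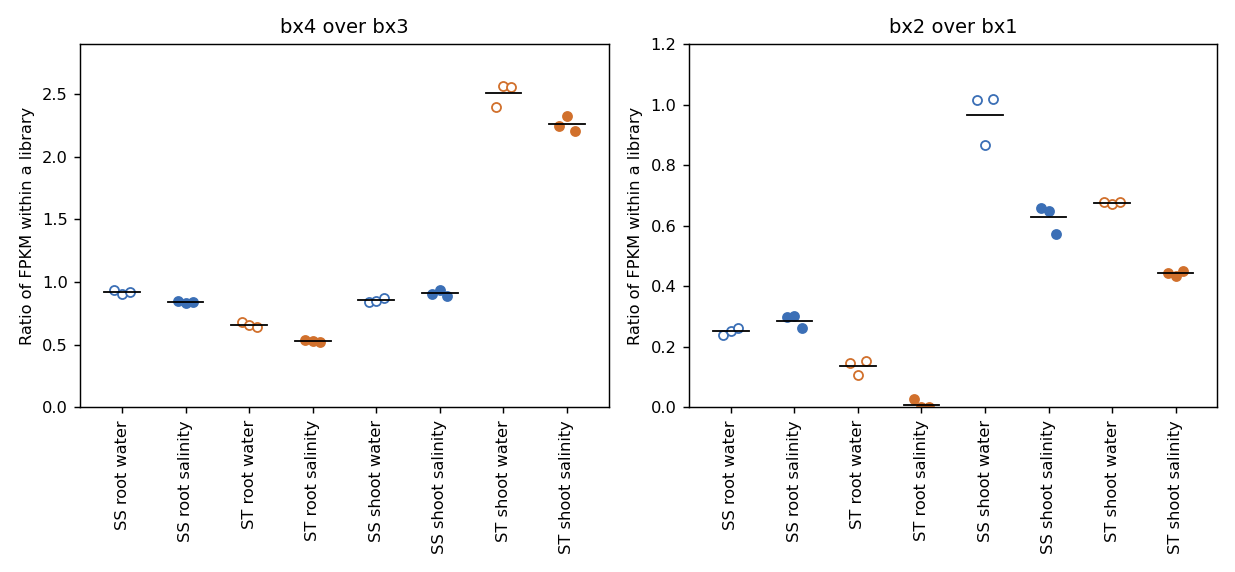
Ratio of FPKM within a library (vertical axes from 0) for bx4 over bx3 (left) and bx2 over bx1 (right) in the 8 groups; points are libraries (open, water; filled, salinity; blue, SS; orange, ST) and lines are means. The bx4 to bx3 ratio is above 2.2 in ST shoots and below 1 in the other groups, and the bx2 to bx1 ratio is highest in SS shoots under water.

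The variation of log2(FPKM + 1) over the 24 libraries was divided among the factors as a description. Tissue took the largest share for bx1 (67.5%), bx2 (81.7%), bx4 (56.8%) and bx5 (60.1%). For bx3 it was cultivar (60.9%), and for Zm00001d048634 the combination of cultivar and tissue (61.0%). Treatment alone took 0.343% to 3.66%, and differences within groups 0.0548% to 0.659%. Over the 24 libraries, which share cultivar and tissue, bx1, bx2, bx4 and bx5 correlated with Pearson coefficients of 0.94 to 0.99 and bx3 with each of them at 0.747 to 0.815. Zm00001d048634 correlated with bx1 to bx5 at -0.34 to 0.26.

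Features with a similar pattern were sought among 17728 others with a mean of at least 5 FPKM. Likeness was the Pearson correlation over 24 libraries with the mean of the 6 standardized genes. The closest were Zm00001d006701 (0.984) and Zm00001d002847 (0.979), and the most opposite was Zm00001d027330 (-0.983). With a pseudocount of 0.1 Zm00001d002847 was no longer among the 2 closest. The files pair none of these with a name. The genes of the mean reached 0.91 to 0.954 themselves, apart from Zm00001d048634 at 0.0652. The rest of the pathway could not be described, because 0 of 12 further symbols sought, among them bx6, bx7 and igl1, had an identifier in the files.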

How the data were processed

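For each of the 24 libraries the authors deposited FPKM values by feature. TopHat2, Cufflinks and Cuffdiff and the build B73 RefGen_v3 are named, per the submitters' processing notes, which give no version and no role. The sources used here do not name the annotation. Zm00001d identifiers belong to a later gene set than that build, so no coordinates are printed. How reads of near-identical copies were assigned is not given either. Whole reads were recovered from the deposited FPKM values by seeking a length per feature and a total per library that make every value whole within 0.002 reads, and this succeeded for 100% of 40811 features above 0. Reads served to state depth and for voom. Tests used limma 3.58.1 in R 4.3.3 with variances following mean expression, and were checked on simulated data. Tables and figures came from Python 3.11.15. Sequences were not used here. The genes and lists were chosen with earlier results of these data known. Every gene is named in every comparison, and the features most like them by the stated rule. Alternatives were a pseudocount of 0.1, filters of any value above 0 or 5 FPKM, median-of-ratios, quantile and TPM scaling, the replicate number as a block, voom, fits of the compared libraries alone and leaving out each library. P-values set differences of group means against the spread between libraries within groups, shared over the groups of a fit. The libraries are described as biological replicates, and how many plants each holds is not given.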

Additional observations from a re-analysis of the deposited data

Results flagged for a closer look

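These are the salt responses for which a direct test found a difference between the cultivars or between the tissues. All are differences of responses in log2(FPKM + 1), and none of the causes was tested.

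Between the cultivars, ST minus SS, the differences in shoots were 1.41 for bx1, 1.41 for bx2, 0.90 for bx3, 0.67 for bx4, 0.68 for bx5 and -0.24 for Zm00001d048634. In roots they were 0.45 for bx1, 0.69 for bx3, 0.51 for bx4 and 0.42 for bx5. The root value of bx1 changed with the pseudocount, and its call was lost without any 1 of 5 root libraries, as given above. The shoot call of Zm00001d048634 was lost with median-of-ratios scaling (-0.11, adjusted p = 0.192). In roots bx2 passed the filter only through SS, so its value of -0.65 is a description and not a test result. It rests on 33 and 5 reads in all in ST.

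Between the tissues, shoot minus root, the differences in ST were 1.07 for bx1, 0.36 for bx3, 0.53 for bx4, 0.66 for bx5 and 0.63 for Zm00001d048634. In SS they were -0.64 for bx2, 0.37 for bx4, 0.41 for bx5 and 0.88 for Zm00001d048634. In ST bx2 stayed below 1 FPKM in every root library, so its value of 1.42 there is a description and not a test result. The ST values of bx1 and bx2 changed with the pseudocount, as given above. These 2 sets of comparisons share libraries with each other and with the single responses.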

How the results depend on the processing

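Of 96 tests of single genes 90 were called, and 78 of these kept call and direction under every alternative. Of all features, 38.7% to 85.1% were called in the same comparisons. The 96, the 90 and the 78, and the 11 salt calls given next, include bx2 in comparisons that involve ST roots. In roots bx2 passed the filter only through SS. Its values in those comparisons are a description, and no counts without them were made. None of the 90 turned direction, and 12 lost the call under at least 1 alternative, mostly in roots, where 3 of 11 salt calls kept it throughout. The count of genes called for salinity in SS roots went from 6 to 3 with features of any value above 0, with quantile normalization and with TPM scaling, and lay at 2 to 6 without single libraries. In ST roots the count with bx2 included went from 5 to 3 with quantile normalization and lay at 2 to 5 without single libraries. A fit of the compared libraries alone, in which bx2 was not tested, called 2 of 5 genes. Directions turned only for values not called. These were Zm00001d048634 between the cultivars' root responses, at -0.020, -0.031 and -0.072 with median-of-ratios, quantile and TPM scaling and -0.075 to 0.072 without single libraries, bx3 in SS shoots with quantile normalization (0.049) and bx4 in SS shoots with median-of-ratios scaling (-0.050). The cause was not tested. With the replicate number as a block, 10390 features were called in SS roots against 10501, and bx1 lost its call there (adjusted p = 0.0523); no other gene's call changed. Same-numbered libraries correlated in their deviations at -0.0949 to 0.0976, so the numbers were not taken as pairs. Each library correlated best with its own number in 1 of 12 comparisons, the cultivars' roots under water. Depth limits bx2 in ST roots.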

Other observations

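Deviations of single libraries from their group means were compared between the genes as a description. Over the 24 libraries, bx3, bx4 and bx5 deviated together, with Pearson coefficients of 0.871 for bx3 and bx4, 0.848 for bx3 and bx5 and 0.796 for bx4 and bx5. Pairs with bx1 lay at 0.0262 to 0.483 and those with Zm00001d048634 at -0.185 to 0.156. Genes of a library share its scaling and depth.

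The files hold 2 further features numbered between bx3 and bx2. One of them, Zm00001d048707, was chosen after its values were seen. It was abundant in every group, at 233 ± 8.42 FPKM in SS roots under water and 126 ± 11.1 in ST roots under water, on at least 1516 reads in every library. In ST shoots it stood at 64.2 ± 1.69 FPKM under water and 128 ± 4.75 under salinity. These libraries did not overlap, as for 51.2% of features. The files and the reference table pair it with no name, but its number lies between bx5 and bx1, where the reference table places bx8, and whether it is bx8 is not settled here.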
